A study of Mus musculus with 2 samples.

Results

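Translation initiation factors are the proteins that bring an mRNA and the small ribosomal subunit together and place the ribosome on the start codon. Their genes were read on 2 microarrays of mouse B cells, 1 array labelled miR-155 knockout and 1 labelled wild-type. Members were chosen by name, as every gene on the platform whose symbol is Eif followed by a number, leaving out the eIF2 kinase genes (Eif2ak) and the Y-linked Eif2s3y. That gave 45 genes, of which 42 had a probe set naming no other gene, among 18193 such genes on the array. Each gene took its probe set with the highest mean of both arrays.

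In initiation, eIF2 carries the initiator methionyl-tRNA as a complex with GTP, and eIF2B reloads eIF2 with GTP after each round. The complex eIF3, together with eIF1, eIF1A and eIF5, holds this tRNA on the small subunit while the mRNA is scanned for a start codon. The complex eIF4F binds the mRNA cap through eIF4E, unwinds the leader with the helicase eIF4A and is held together by eIF4G, and the eIF4E-binding proteins block that assembly unless mTOR phosphorylates them. Resting B cells translate little, and activation is known to raise their protein synthesis before they divide.

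Both arrays held RNA of cultured and activated B cells of the C57 background, and every sample had been treated with cycloheximide (100 ug/ml, the last 8 min of culture). This drug stops translation elongation, so the cells of both labels had arrested ribosomes when their RNA was taken, and there was no array without the drug. The culture was also described as haematopoietic progenitors of male animals, grown for 6 days with granulocyte colony-stimulating factor and stem cell factor. Whether an array stands for 1 animal or a pool was not stated in the labels used here. The deleted gene encodes this microRNA, printed from RefSeq (GRCm38.p6, chr16:84714143-84714165, plus strand) because it is the molecule that separates the genotypes. Its seed, bases 2 to 8, is in capitals.
mmu-miR-155-5p: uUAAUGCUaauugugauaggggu

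The labels disagreed about which array is which. Titles and genotype entries gave the assignment used here, source names gave the reverse for both arrays, and all signs turn over if the source names are right. Mir155hg, the host transcript of the microRNA, had log2 levels of 10.88 (array labelled knockout) and 6.63 (array labelled wild-type), so it went against the genotype label. Where its probe set lies relative to the deletion was not determined here. With 1 array per label there is no replicate check, no test was possible, and differences are described by size, always as labelled knockout minus labelled wild-type on the log2 scale. As a technical yardstick, the brightest and next brightest expressed probe sets of a gene disagreed in this difference by 0.084 at the median of 4906 genes and by 0.31 at their 95th percentile. The level for expression was set at 6.71, the middle level of the non-control probe sets, and 10717 of all 18193 genes passed it. All 9 B cell markers measured passed it, as did 7 of 7 macrophage and monocyte markers and 5 of 6 T cell markers. So did 3 of 6 dendritic cell markers, 2 of 9 neutrophil markers and 1 of 6 progenitor markers. Median levels (labelled knockout, labelled wild-type) were 12.42 and 12.49 for the measured B cell markers. Both are the levels of Blnk, the only 1 of these 9 markers that was lower where the label reads knockout. The medians were only 6.88 and 7.21 for macrophage and monocyte markers and 7.45 and 7.42 for T cell markers.

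Initiation factor genes were slightly higher where the label reads knockout. Of the 42 measured genes 41 passed the level for expression, and of these 32 were higher and 9 lower. Among all 10717 expressed genes 56.9% were higher and 42.1% lower, while 106 had equal values on both arrays. The median difference was 0.08 (1.06-fold) for the initiation factors and 0.03 (1.02-fold) for all expressed genes. The lower and upper quartiles of the members' differences were 0.02 and 0.15, against -0.08 and 0.12 for all expressed genes.

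The differences were narrow in both directions. Their SD was 0.094 over the 41 genes and 0.19 over all expressed genes. Eif5a2 and Eif1a alone were higher by 0.25 or more (1.19-fold), where 7.6% of expressed genes were, and no initiation factor was lower by that much, where 6.4% of expressed genes were. With the mean of all probe sets of a gene, sets below the level for expression included, Eif1a stood at 0.22, under this size, while Eif5a2 (0.34), Eif2b5 (0.31) and Eif3h (0.26) were past it. The further probe sets of Eif2b5 and Eif3h lay below the level for expression. None reached 0.5 in either direction, which 1.99% of expressed genes did. Against the yardstick, 19 members were higher by more than the median disagreement of probe sets and 0 lower, compared with 33.9% and 23.3% of expressed genes, and 1 member exceeded the 95th percentile of that disagreement, as did 8.54% of expressed genes.

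**Figure D1:**
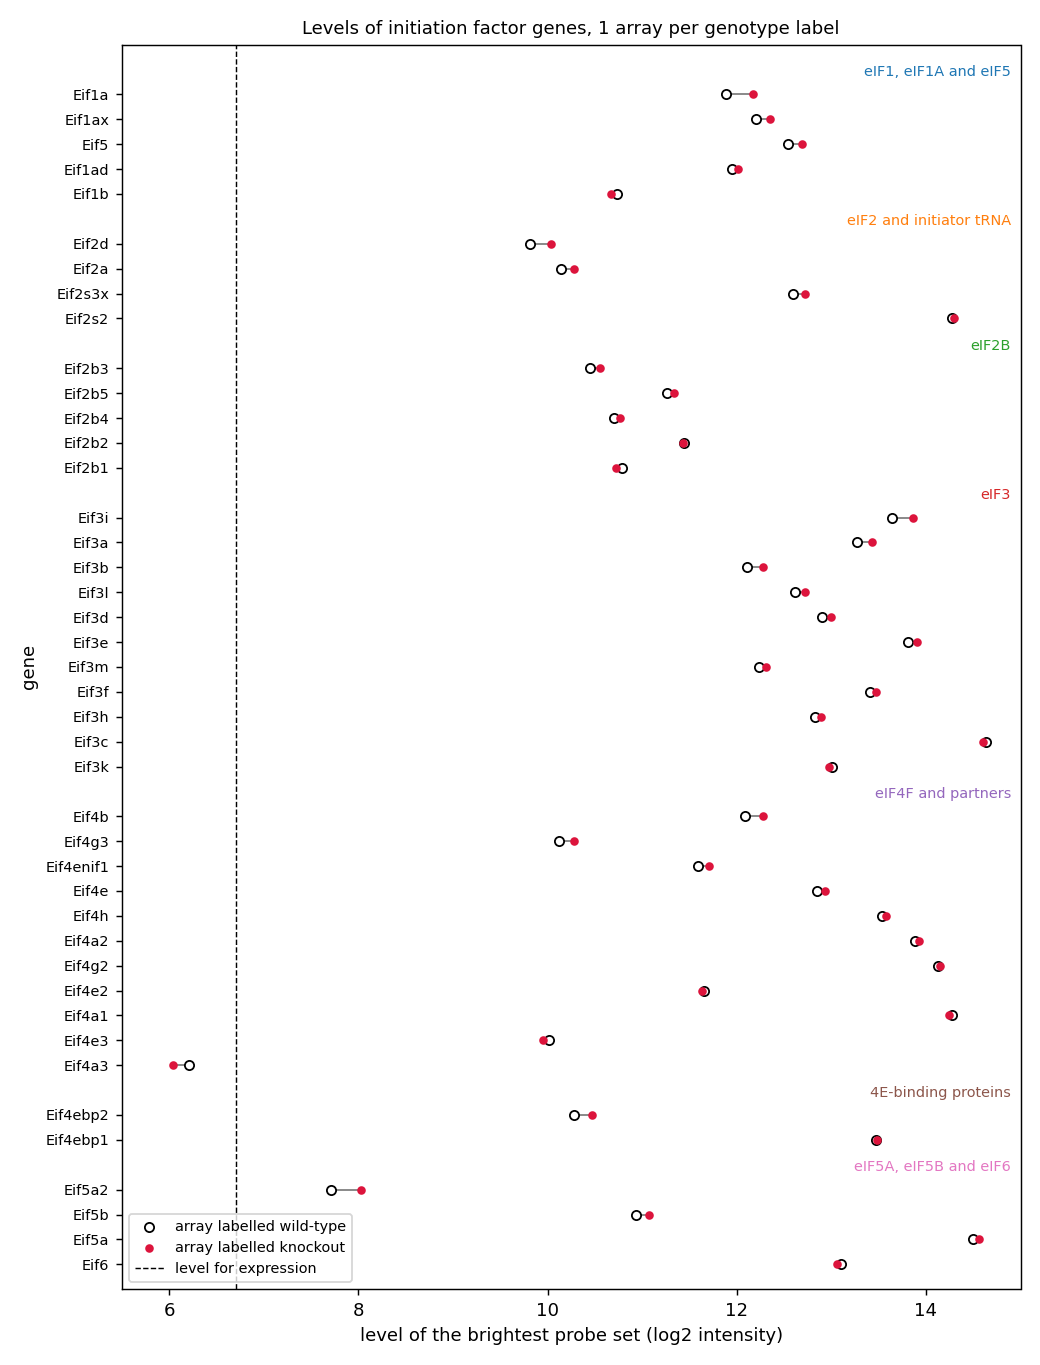
Log2 level of the brightest probe set (x axis) of each of the 42 measured initiation factor genes (y axis, grouped by role) on the array labelled wild-type (open circles) and the array labelled knockout (filled circles); the dashed line is the level for expression, 6.71. Each circle is 1 array, 41 genes lie right of the line, and the gap between the circles of a gene is small beside the range of levels.

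The genes named for eIF1, eIF1A and eIF5 ranged from the second highest member to the lowest, with a median of 0.15. Of these 5 genes 4 were higher (80.0%, against 56.9% of all expressed genes). Eif1a, a form of eIF1A, the factor that keeps the ribosome scanning, stood at 12.17 on the array labelled knockout and at 11.89 on its wild-type counterpart, a difference of 0.28 (1.21-fold). Its X-linked relative Eif1ax stood at 12.35 and 12.20, a difference of 0.15. Both genes were thus higher in the same direction, and because their products are nearly alike, probes may read both.

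Eif5, which triggers GTP hydrolysis by eIF2 once a start codon is found, stood at 12.69 and 12.54, a difference of 0.15. All 5 of its probe sets were higher, by 0.10 to 0.20, so the direction, though not the size, was shared by all of them. Eif1ad, named for an eIF1A domain, differed by 0.07, and by 0.003 on its other probe set. Eif1b, a close relative of the start codon factor eIF1, was the lowest of all 41 genes, at 10.67 and 10.74, a difference of -0.07, and 25.9% of expressed genes lay lower still. It had a single probe set. Eif1 itself was not among the 45 genes found by symbol.

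The genes around eIF2 and the initiator tRNA were all higher, 4 of 4, where 56.9% of all expressed genes were, with a median of 0.14. Of these only Eif2s3x and Eif2s2 are subunits of eIF2, and Eif2s1 was not among the 45 genes found by symbol. Eif2s3x, the gamma subunit of eIF2, which binds GTP and the tRNA, stood at 12.73 and 12.59, and its 3 probe sets differed by 0.11 to 0.14. Eif2s2, the beta subunit, stood at 14.30 and 14.28 on its brightest probe set, a difference of only 0.02. The other 5 probe sets of Eif2s2 were all higher as well, by 0.04 to 0.23, so the value chosen by the rule was the smallest of the 6.

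Eif2a and Eif2d are not subunits of eIF2, and each encodes a separate protein that can bring tRNA to the ribosome without it. Eif2d stood at 10.04 and 9.82, a difference of 0.22, and its next 2 probe sets differed by 0.19 and 0.35. The dimmest expressed probe set of Eif2d carried exactly the same value on both arrays, 6.97. Eif2a stood at 10.28 and 10.14, a difference of 0.14.

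Subunits of eIF2B, the exchange factor whose mutations cause vanishing white matter disease, differed little. Of 5 subunits 3 were higher and 2 lower, with a median of 0.06, so their share of higher genes was close to that of all expressed genes. The highest was Eif2b3 at 10.56 and 10.44, a difference of 0.11, and the lowest Eif2b1 at 10.73 and 10.79, a difference of -0.06. Between these lay Eif2b5, the catalytic epsilon subunit (0.07), Eif2b4 (0.06) and Eif2b2 (-0.01). For Eif2b2 the sign was not stable, since its other probe sets differed by 0.03 and 0.08.

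The subunits of eIF3, the largest initiation factor, were mostly higher. Of 11 measured subunits 9 were higher (81.8%, against 56.9% of all expressed genes) and 2 lower, and the median was 0.09. Eif3i, a WD40-repeat subunit, stood at 13.87 and 13.64, a difference of 0.23, and its other probe set differed by 0.18. Eif3a, the scaffold of the complex, stood at 13.43 and 13.27, a difference of 0.17, and all 4 of its probe sets were higher, by 0.13 to 0.22. Eif3b, which holds Eif3i in the complex, stood at 12.28 and 12.11, a difference of 0.17.

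The remaining subunits were closer to 0. Eif3l differed by 0.11, Eif3d, which can itself bind the cap of some mRNAs, by 0.10 (-0.007 on averaging with a probe set below the level for expression), and Eif3e by 0.09 with 0.11 and 0.13 on its other expressed probe sets. Eif3m (0.08), Eif3f (0.07) and Eif3h (0.07) had 1 expressed probe set each. The subunit gene Eif3g was not among the 45 genes found by symbol. The lower subunits were Eif3k, a peripheral one, at 12.97 and 13.01, and Eif3c, a core one, at 14.60 and 14.63, each with a difference of -0.03. The other 3 probe sets of Eif3c were all higher, by 0.04 to 0.06. Eif3j1 and Eif3j2 are near-identical copies with no probe set of their own, and the 3 probe sets that name both differed by 0.10, 0.14 and 0.23.

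**Figure D2:**
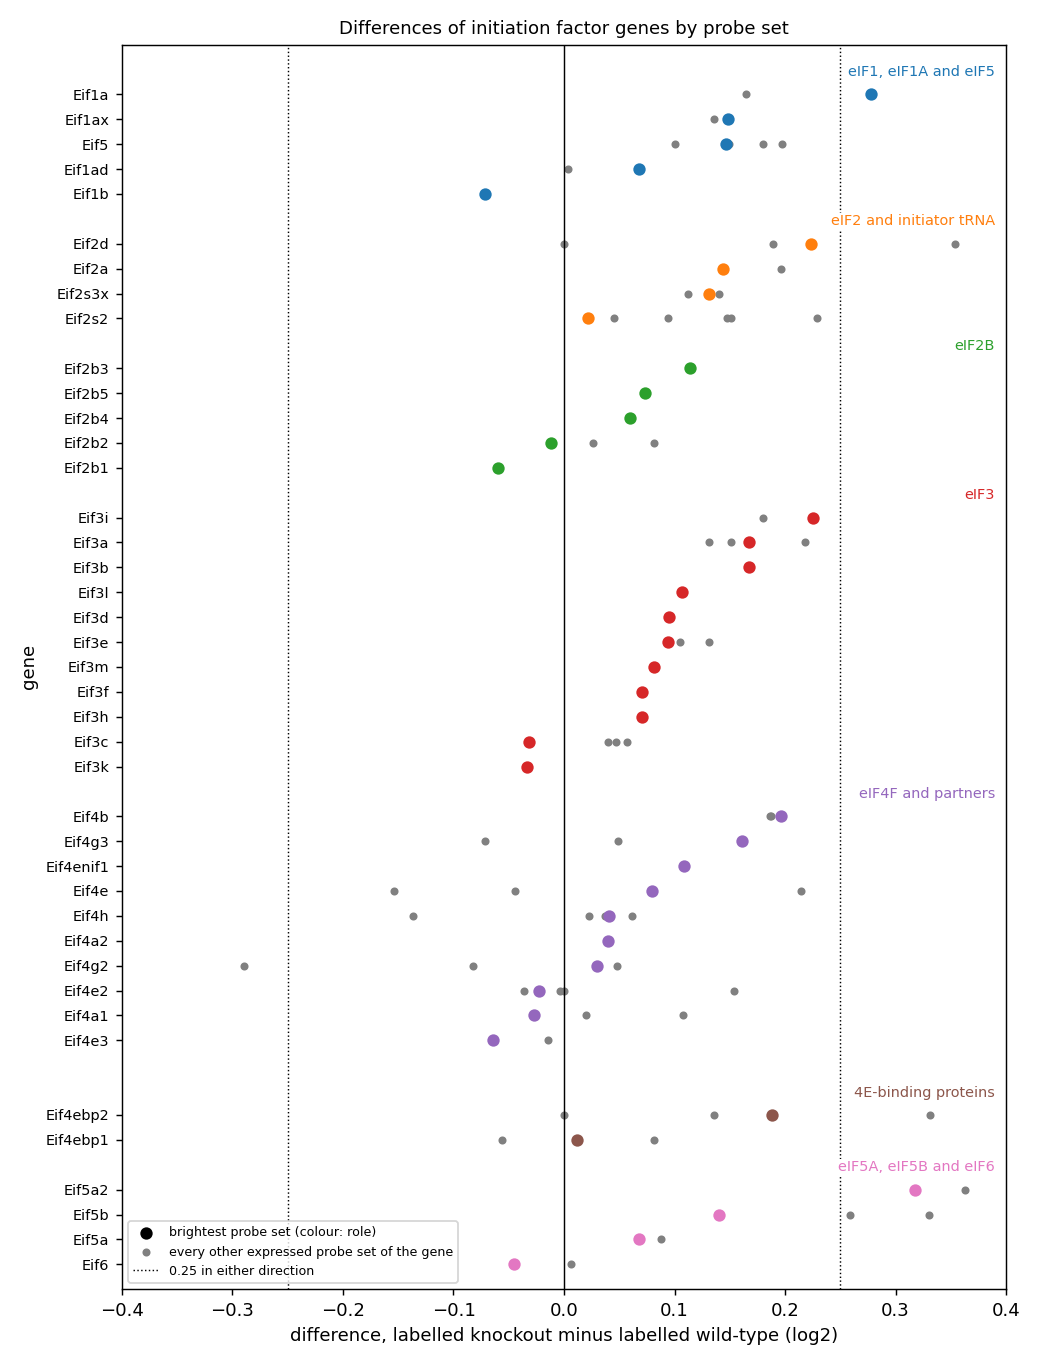
Difference of the log2 level, array labelled knockout minus array labelled wild-type (x axis), for the 41 expressed initiation factor genes (y axis, grouped by role); large points are the brightest probe set of a gene, small grey points its other expressed probe sets, and dotted lines mark 0.25 in either direction. Most large points lie between 0 and 0.25, Eif5a2 and Eif1a lie beyond, and the cap-binding group has probe sets on both sides of 0; Eif4ebp1, at 0.01, turns below 0 under quantile normalization or after a loess curve is subtracted.

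Genes of the cap-binding complex were more mixed. Of 10 expressed genes in this group 7 were higher (70.0%, against 56.9% of all expressed genes) and 3 lower, with a median of 0.04. Eif4e, the cap-binding protein, stood at 12.93 and 12.85, a difference of 0.08. Its next brightest probe set stood at 10.88 and 10.67, a difference of 0.21, and the dimmest 2 differed by -0.15 and -0.04. The 4 probe sets of Eif4e therefore did not share a direction.

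Eif4a1, the main helicase of the complex, stood at 14.24 and 14.27, a difference of -0.03, while its other probe sets differed by 0.02 and 0.11. Eif4a2, its close paralog, stood at 13.92 and 13.88, a difference of 0.04. Neither helicase gene thus differed by more than the median disagreement between probe sets. The helicase cofactor gene Eif4b was the highest of the group at 12.28 and 12.08, a difference of 0.20, and its other probe sets each differed by 0.19. Eif4h, a relative of Eif4b, differed by 0.04, with 4 of 5 expressed probe sets higher and the dimmest at -0.14.

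Of the scaffold genes, Eif4g1 was not among the 45 genes found by symbol. Eif4g3 stood at 10.28 and 10.12, a difference of 0.16, with 0.05 and -0.07 on its other expressed probe sets. The mean of all 4 of its probe sets was -0.06, so the direction of Eif4g3 depended on the probe set. Eif4g2, also known as DAP5, a scaffold that lacks the eIF4E-binding part, stood at 14.15 and 14.12, a difference of 0.03. A dimmer probe set of Eif4g2 stood at 11.52 and 11.81, a difference of -0.29, the lowest of any expressed initiation factor probe set. Eif4enif1, which carries eIF4E into the nucleus, differed by 0.11. The alternative cap-binding genes were lower, Eif4e2 at -0.02 and Eif4e3 at 9.95 and 10.02, a difference of -0.06. Eif4e3 was the only member with several expressed probe sets that were all lower (-0.06 and -0.01).

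Eif4a3, the helicase of the exon junction complex, was the 1 measured gene below the level for expression, at 6.04 and 6.21. A brighter probe set that names both Eif4a3 and Gm5576 stood at 12.65 and 12.57, a difference of 0.07, and was left out of the counts because its signal cannot be assigned to 1 gene.

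The eIF4E-binding proteins restrain cap-dependent translation. Eif4ebp2 stood at 10.47 and 10.28, a difference of 0.19, and its next 2 probe sets differed by 0.33 and 0.14, while the dimmest expressed one held an identical value on both arrays (7.34). Eif4ebp1 stood at 13.48 and 13.47, a difference of 0.01 that turned to -0.02 under quantile normalization, to slightly under 0 on subtracting a loess curve and to -0.06 with plain probe sets. Only Eif4ebp2 of this pair was therefore higher with each choice tried, though by only 0.07 with the mean of its probe sets. That mean included a probe set below the level for expression, with a difference of -0.30. Eif4ebp3 was read only by a probe set shared with Ankhd1, at 10.21 and 10.14.

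The group of eIF5A, eIF5B and eIF6 held the member with the largest difference. Eif5a2, a second form of the hypusine-bearing factor eIF5A, stood at 8.03 and 7.71, a difference of 0.32 (1.25-fold), and at 7.12 and 6.76 on its other probe set, a difference of 0.36. The dimmer set lay close to the level for expression, and 95.9% of expressed genes had a lower difference. The abundant form Eif5a stood at 14.56 and 14.50, a difference of 0.07, and at 0.09 on its other probe set.

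Eif5b, the GTPase that joins the ribosomal subunits, stood at 11.08 and 10.93, a difference of 0.14. Its other probe sets were higher by 0.26 and 0.33, so as with Eif2s2 the brightest set showed the smallest difference. Eif6, which keeps free large subunits from joining, stood at 13.06 and 13.11, a difference of -0.04, and at 0.01 on a dimmer set.

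Probe sets of the same gene gave a second view of these directions. The 41 genes had 101 expressed probe sets, of which 79 were higher, 19 lower and 3 equal, or 78.2% higher against 58.8% of 19171 expressed single-gene probe sets. Of the 27 members with several expressed probe sets, 14 agreed on higher (51.9%), 1 agreed on lower (3.7%) and 12 were mixed. Over all 4906 such genes, the probe sets were higher together for 40.7% and lower together for 20.0%. Probe sets of 1 gene share the RNA of 1 array, so they are not replicates of the genotype.

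Most members were bright, and the spread of the difference depended on level. Its SD was 0.21 over 6622 expressed genes below a mean level of 10, 0.17 from 10 to 12, 0.18 from 12 to 13 and 0.10 over 357 genes at 13 or more. The 13 members at 13 or more had a median of 0.04 with 10 higher, against a median of 0.02 and 58.5% higher for all genes there. The 12 members from 12 to 13 had a median of 0.12 with 11 higher, against 0.03 and 57.4%. From 10 to 12 the 13 members had a median of 0.07 with 9 higher, against 0.04 and 62.2%, and only 3 members lay below 10. Among the bands with over 3 members, the gap between the medians was thus widest from 12 to 13.

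**Figure D3:**
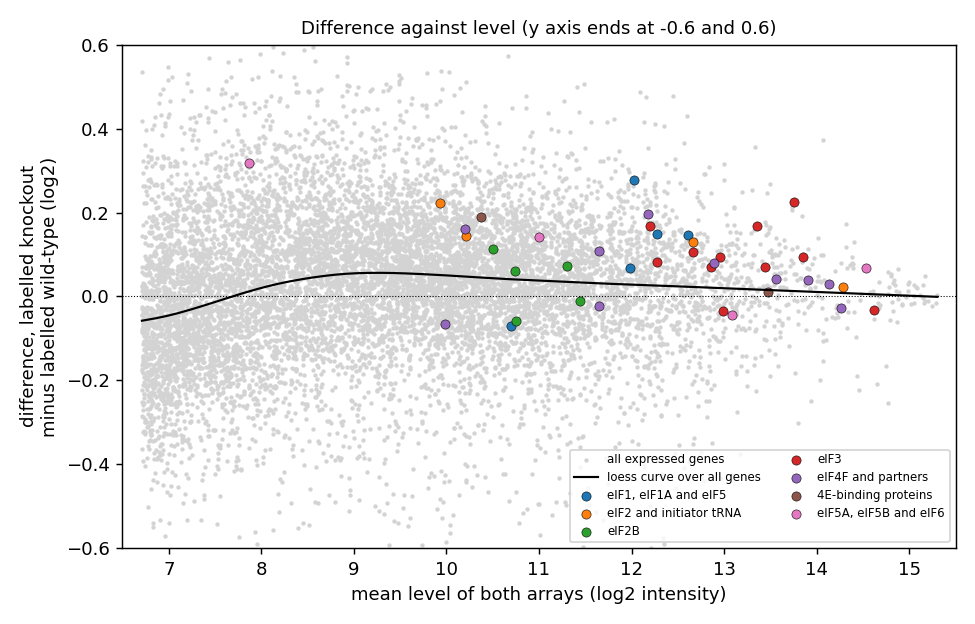
Difference of the log2 level, array labelled knockout minus array labelled wild-type (y axis, cut at the values marked on it), against the mean level of both arrays (x axis, log2 intensity) for expressed genes (grey) and for the 41 initiation factor genes (coloured by role); the line is a loess curve over all genes. Above the curve lie 31 of the 41 initiation factors; Eif4ebp1, at 0.01, falls just below it.

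Other genes of translation were set beside the initiation factors from lists that follow their roles. Regulators of the cap and the poly(A) tail had 12 of 14 members higher, with a median of 0.13. They were led by Ncbp2, a subunit of the nuclear cap-binding complex, at 9.92 and 9.60 (0.31), and by Pdcd4, an inhibitor of eIF4A, at 9.94 and 9.65 (0.29), and the lowest was Paip2 (-0.065), an inhibitor of poly(A)-binding protein. Genes of helicases, release and reinitiation had 4 of 5 higher, with a median of 0.14, from Abce1 (0.22), which splits ribosomes after termination, to Denr (-0.05). The shares higher were 85.7% and 80.0%, against 78.0% of the initiation factors and 56.9% of all expressed genes, and the second list has only 5 genes. Both lists were written with earlier results of these data known.

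Kinases of eIF2 and the genes around them did not lean either way, with 5 of 10 higher and a median of 0.01. The highest was Eif2ak4, the amino acid sensor GCN2, at 8.46 and 8.24 (0.22). The lowest was Ppp1r15a, the stress-induced phosphatase subunit GADD34 that reverses eIF2 phosphorylation, at 12.71 and 12.96 (-0.249).

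Elongation factors had 6 of 8 higher and a median of 0.07. Eef2k, the kinase that inhibits eEF2, was highest at 8.00 and 7.67 (0.33), and Eef1a1 lowest at 15.28 and 15.29 (-0.02). Termination factors Gspt1 (0.20) and Etf1 (0.07) and mitochondrial initiation factors Mtif3 (0.07) and Mtif2 (0.04) were higher as well. Each of these lists had only 2 expressed genes, and Gspt2 lay below the level for expression at 5.28 and 5.23. Cytosolic ribosomal protein genes had 31 of 45 higher (68.9%, against 56.9% of all expressed genes). Their median of 0.02 was near that of all expressed genes, and they ran from Rps4l (-0.51) to Rpl37 (0.26). Most of them lay at a level of 13 or more, where the median was 0.02 for all genes and 0.04 for initiation factors. The list was made by symbol, so it also holds names such as Rps19bp1 and Rps15a-ps6. The ribosomal list shares Rps6 with the regulators. No list could be tested against another with 1 array per label.

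**Figure D4:**
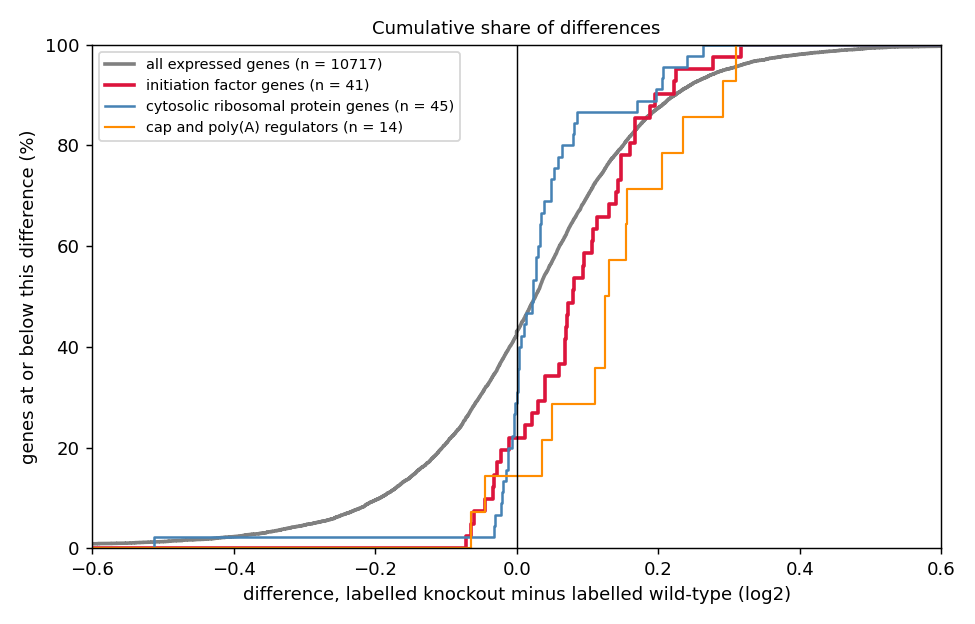
Percentage of genes (y axis) at or below each log2 difference, array labelled knockout minus array labelled wild-type (x axis), for all 10717 expressed genes, 41 initiation factor genes, 45 cytosolic ribosomal protein genes and 14 regulators of the cap and poly(A) tail. The initiation factor curve starts at -0.07 and lies right of the curve for all genes up to differences of about 0.15, with medians of 0.08 and 0.03; Eif4ebp1, at 0.01 in it, turns below 0 under quantile normalization or after a loess curve is subtracted.

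Cell type markers also differed between the arrays. The median was 0.17 for B cell markers and -0.24 for macrophage and monocyte markers, against 0.08 for the initiation factor genes. For the counts that follow, 56.9% of all expressed genes were higher and 42.1% lower. Of the 9 B cell markers 8 were higher where the label reads knockout, from Blnk (-0.07) to Cd79b (0.27), with summed log2 levels of 110.6 there and 109.4 on the other array. Of 7 macrophage and monocyte markers 6 were lower, with a median of -0.24 and 2 past -0.25, Tyrobp (-0.39) and Cd14 (-0.35), while Adgre1 (0.03) was higher. They had summed log2 levels of 51.1 and 52.6. Tyrobp was the brightest of them at 8.97 and 9.36, followed by Csf1r at 7.52 and 7.65. Of 6 T cell markers 5 were expressed, 3 higher and 2 lower, from Cd3d (-0.12) to Thy1 (0.56). Summed log2 levels of all 6, Cd3g below the level for expression included, were 43.6 and 43.0. Of 6 dendritic cell markers 3 were expressed, and Zbtb46 (-0.44) and Flt3 (-0.27) were lower and Batf3 (0.37) higher. Summed log2 levels of all 6, including Itgax, Xcr1 and Siglech below the level for expression, were 44.9 and 45.4. A sum of log2 levels is not an amount of RNA. Of 9 neutrophil markers 2 were expressed, Prtn3 (-0.05) and Camp (-0.07), and of 6 progenitor markers only Hoxa9 (-0.12), all of them lower. The part of cell composition in the differences of initiation factor genes was not tested, and in bulk RNA fewer cells of a type and less RNA per cell cannot be told apart.

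Promoters were examined for short motifs because MYC, which binds the E-box CACGTG, is known to act on several initiation factor genes. RefSeq windows (GRCm38.p6, 250 bases before to 50 after a start site) were matched by symbol for 34 of the 45 genes, and motifs were searched on both strands. The E-box, which reads the same on both strands, was present for 9 of 34 genes (26.5%), against 8.09% of 27025 genes with a window and 1046 of 8684 expressed ones. The ETS core CCGGAAG was present for 14 (41.2%), against 9.93% and 21.1%. The CCAAT box, CCAAT, was present for 12 (35.3%), against 41.1% and 43.1%, and TATAAA for 2 (5.88%), against 15.7% and 8.54%. None of these motifs contains another, and a match describes the letters only.

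Every E-box found before a start site is printed, from the highest member to the lowest, so that windows of members with unlike differences can be compared. Capitals mark the E-box, each stretch lies before the annotated start site of its window, and the difference of the gene stands with its position.
Eif5a2 (0.32, chr3:28781123-28781152, plus strand, 142 bases before the start): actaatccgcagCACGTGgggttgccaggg
Eif5a2 (0.32, chr3:28781148-28781177, plus strand, 117 bases before the start): cagggcgagcttCACGTGacggggcgggac
Eif4e (0.08, chr3:138527028-138527057, plus strand, 228 bases before the start): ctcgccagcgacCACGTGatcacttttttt
Eif4e (0.08, chr3:138527192-138527221, plus strand, 64 bases before the start): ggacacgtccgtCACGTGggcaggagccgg
Eif3f (0.07, chr7:108934335-108934364, plus strand, 68 bases before the start): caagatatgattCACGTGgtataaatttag
Eif5a (0.07, chr11:69920791-69920820, minus strand, 178 bases before the start): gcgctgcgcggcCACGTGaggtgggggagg
Eif5a (0.07, chr11:69921443-69921472, minus strand, 74 and 185 bases before separate starts): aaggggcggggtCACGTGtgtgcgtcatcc
Eif4h (0.04, chr5:134639488-134639517, minus strand, 96 bases before the start): cggccgccgcacCACGTGggccgcagagcg
Eif4a1 (-0.03, chr11:69672595-69672624, minus strand, 189 bases before the start): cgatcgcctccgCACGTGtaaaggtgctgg
Eif3k (-0.03, chr7:28981915-28981944, minus strand, 44 bases before the start): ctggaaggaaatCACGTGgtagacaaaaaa
Eif1b (-0.07, chr9:120492570-120492599, plus strand, 24 bases before the start): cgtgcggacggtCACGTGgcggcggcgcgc

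The remaining E-box gene was Eif3a, whose match begins 23 bases into the transcript. The 9 genes with an E-box held both the highest member, Eif5a2, and the lowest, Eif1b. Of these 9 genes 6 were higher, with a median of 0.07, and of the 23 expressed members whose windows held none 19 were higher, with a median of 0.11. Over all expressed genes with a window, 62.0% of 1046 with an E-box were higher and 56.6% of 7638 without one.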

How the data were processed

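The deposited table holds log2 intensities of 45101 probe sets on 2 Affymetrix 3′ arrays. The log2 unit was read from the values, and how probes were summarised and normalized is not given in the sources used here. Sorted values of the authors' table differed between arrays by at most 0.063, so a change in total RNA per cell would not show. The number of arrays limits the precision.

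Probe sets were named from the platform annotation, and all 42 measured members matched RefSeq symbols by Entrez number. Every member is named with its level or difference, and of each other translation list the highest and lowest expressed gene and those past 0.25. Members and lists were chosen with earlier results of these data known. Listed symbols without a probe set of their own were not analysed here. Functions were tested on simulated data. Alternatives averaged each gene's probe sets or used plain _at sets, quantile normalization, a loess curve (span 0.3), and other filters. The software was statsmodels 0.14.6, NumPy 2.4.6 and pandas 2.3.3 under Python 3.11.15, with figures by matplotlib 3.10.9.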

Additional observations from a re-analysis of the deposited data

How the results depend on the processing

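The median difference of the expressed initiation factor genes stayed above 0 under 6 other ways of processing, from 0.06 with the loess curve subtracted to 0.08 with the mean of the probe sets, and was 0.08 when members without an expressed probe set of their own took a shared one, an alternative chosen after seeing the data. The share of members that were higher ran from 75.6% to 79.5%. For all genes in the same settings it ran from 48.0% with no filter on low levels to 62.7% with the filter at the 75th percentile. Under quantile normalization it was 49.2% of all expressed genes, and 49.9% with the loess curve subtracted. Quantile normalization moved the median of all expressed genes from 0.03 to just below 0 and the members' median to 0.07. The count at or past 0.25 was 3 rather than 2 with the mean of the probe sets, where Eif1a dropped out and Eif2b5 and Eif3h came in, 1 with plain probe sets and 1 with the filter at the 75th percentile; the last 2 tested fewer genes. Signs turned for 8 of 41 members with the mean of the probe sets (Eif2b2, Eif3c, Eif3d, Eif4a1, Eif4e2, Eif4g2, Eif4g3 and Eif4h), 3 of 33 with plain sets (Eif3c, Eif4ebp1 and Eif6) and 1 of 41 (Eif4ebp1) with each of quantile normalization and the loess curve, none of them at or past 0.25 in the comparison reported. No paired analysis was possible because each label has 1 array and the labels carry no replicate numbers. No array could be left out for the same reason. A pseudocount does not arise for log2 values.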

Other observations

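Some probe sets held exactly the same value on both arrays. They numbered 1143, or 2.54% of the probe sets that are not controls, at levels from 3.17 to 14.96 with a median of 5.28. Among the initiation factor probe sets there were 3, one each for Eif2d (6.97), Eif4ebp2 (7.34) and Eif4e2 (7.84), none of them the brightest of its gene. The cause was not tested.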
